A study of Homo sapiens with 17 samples.

Results

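H3K27ac after knockdown with shHNRNPU#1 was compared with the shLUC control in H1, a human embryonic stem cell line in long use. The members were 4 of the 17 CUT&Tag samples of the series: the 2 lists of H3K27ac summits from shHNRNPU#1 cells and the 2 lists from shLUC cells whose deposited lists carry the name H3K27ac. All cells of these groups received virus carrying an shRNA, against HNRNPU or, as control, against luciferase, and were selected with puromycin. Nothing in the labels states whether the repeats were separate cultures, so p-values rest on the spread between these samples, which may be technical. Those from limma take that spread mostly from all sites together. The 2 H3K27ac lists of a second shRNA, shHNRNPU#2, are given beside them where they show how far a difference is particular to shHNRNPU#1.

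H3K27ac, acetylation of lysine 27 on histone H3, marks active promoters and enhancers and is written mainly by the acetyltransferases EP300 and CREBBP. In CUT&Tag an antibody tethers the transposase Tn5 to chromatin, which cuts and tags the DNA beside the mark. HNRNPU, also called SAF-A, is an abundant nuclear protein that binds RNA and DNA, is a component of the nuclear matrix, and takes part in splicing and in the large-scale folding of chromatin. The comparison addressed what becomes of the acetylated sites of pluripotent cells when HNRNPU is targeted. These lists hold no measurement of HNRNPU itself, and how far the knockdown went was not checked here. They come from bulk cells, so fewer cells carrying a mark and less of it per cell cannot be told apart.

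The sample titles of the 2 shLUC lists name H3K4me1, the methylation mark of enhancers, and the titles of another pair of shLUC lists name H3K27ac. Among the 20000 highest summits, 24.5% and 27.2% lay within 1000 bp of the start of a protein-coding gene in the shLUC lists named H3K27ac by file. The share was 21.9% and 21.2% in the H3K27ac lists of shHNRNPU#1 and 25.2% and 23.9% in those of shHNRNPU#2. In the shLUC lists titled H3K27ac it was 7.47% and 7.16%, beside 7.62% and 7.69% in the H3K4me1 lists of shHNRNPU#1, for which title and file name give the same antibody. By this share the shLUC lists went with the file names and against the titles. All results below use the file names, and the values with the titles are given where the direction depends on them.

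As a check of the cell type, 9 of 12 markers of pluripotent stem cells had a promoter summit among the 20000 highest of at least 1 of the 4 lists, 4 of them in both shLUC lists and 3 in all 4 lists. NANOG, DPPA4 and PODXL had no promoter summit in any list, and SOX2, SALL4 and TDGF1 had one in a single list of the 4. The promoter of L1TD1, an RNA-binding protein of pluripotent cells, ranked 100 and 133 in shLUC and 96 and 105 in shHNRNPU#1, and that of ZFP42 ranked 2825 and 2076 against 2486 and 4479. None of 7 fibroblast, 6 blood, 6 trophoblast and 5 neuron markers reached the 20000 highest in any of the 4 lists, and 1 of 5 hepatocyte markers, CYP3A4, did so in 1 list.

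The lists differed in length and score. They held 62449 and 90914 summits in shLUC, 51655 and 40487 in shHNRNPU#1 and 75264 and 85142 in shHNRNPU#2, so both shHNRNPU#1 lists were shorter than all others. The deposited score of a summit, read as −log10 of a p-value or q-value, rises with sequencing depth, which is unknown. At rank 20000 the score was 6.16 and 9.40 in shLUC, 6.01 and 4.81 in shHNRNPU#1 and 7.06 and 8.01 in shHNRNPU#2. All lists ended at a score of 2.00. The 20000 highest summits of each list are called strong here. A site missing from a shHNRNPU#1 list is therefore a weaker statement than a site missing from a shLUC list, and ranks, not scores, were compared. In the other 5 lists the scores on both sides of rank 20000 were equal to the digits deposited, and in shHNRNPU#2 repeat 1 they were 7.058 and 7.056.

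**Figure D1:**
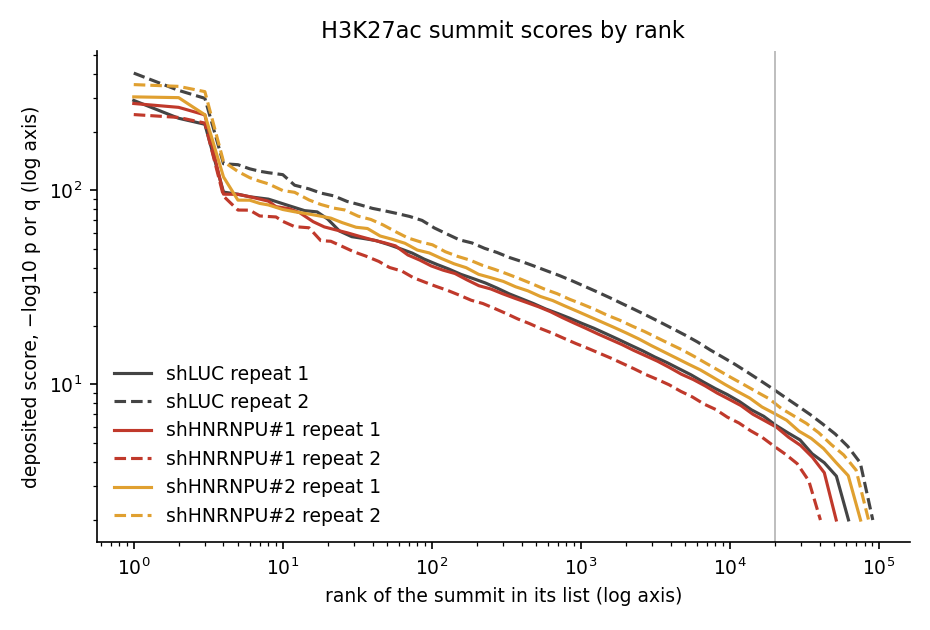
Deposited score (y axis, −log10 of p or q, log scale) against rank (x axis, log scale) for the 6 H3K27ac lists, with repeat 1 solid and repeat 2 dashed and a grey line at rank 20000. The curves are nearly parallel; shHNRNPU#1 repeat 2 is the lowest and ends first, at 40487 summits, and shLUC repeat 2 is the highest.

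The windows below are starts of 5 genes, for MAPK10 and CLASP2 starts internal to the gene. At each, a summit was strong in both shLUC lists while none lay within 1000 bp in either shHNRNPU#1 list. These windows are shown because they are among the 10 absent promoters of highest score percentile. Their shLUC summit falls inside the window, and they differ in base composition. Each runs 250 bases before to 50 bases after the start, 5′ to 3′ on the gene's strand, from the RefSeq promoter table for GRCh38.p14, the assembly that hg38 denotes. Capitals mark matches to the GC box GGGCGG, the CCAAT box CCAAT, the ETS core CCGGAAG or the TATA box TATAAA, searched on both strands.
ARHGAP1 (chr11:46700570-46700869, minus strand): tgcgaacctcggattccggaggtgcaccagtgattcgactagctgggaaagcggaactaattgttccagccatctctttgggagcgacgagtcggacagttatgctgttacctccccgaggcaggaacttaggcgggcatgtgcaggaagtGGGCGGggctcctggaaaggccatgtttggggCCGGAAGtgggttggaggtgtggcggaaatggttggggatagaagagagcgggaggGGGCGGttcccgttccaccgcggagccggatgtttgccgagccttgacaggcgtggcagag
PDGFD (chr11:104164098-104164397, minus strand): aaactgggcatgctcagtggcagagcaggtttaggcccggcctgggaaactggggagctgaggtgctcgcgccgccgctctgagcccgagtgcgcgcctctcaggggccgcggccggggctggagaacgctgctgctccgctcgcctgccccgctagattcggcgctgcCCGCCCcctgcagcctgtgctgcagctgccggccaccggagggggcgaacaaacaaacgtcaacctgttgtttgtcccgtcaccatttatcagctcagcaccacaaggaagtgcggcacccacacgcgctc
MAPK10 (chr4:86360004-86360303, minus strand): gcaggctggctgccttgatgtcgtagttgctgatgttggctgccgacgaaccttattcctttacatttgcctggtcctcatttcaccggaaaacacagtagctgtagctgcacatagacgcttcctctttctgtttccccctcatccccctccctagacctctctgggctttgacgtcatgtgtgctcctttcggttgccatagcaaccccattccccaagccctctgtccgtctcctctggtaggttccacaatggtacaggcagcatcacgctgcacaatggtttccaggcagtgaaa
CLASP2 (chr3:33659058-33659357, minus strand): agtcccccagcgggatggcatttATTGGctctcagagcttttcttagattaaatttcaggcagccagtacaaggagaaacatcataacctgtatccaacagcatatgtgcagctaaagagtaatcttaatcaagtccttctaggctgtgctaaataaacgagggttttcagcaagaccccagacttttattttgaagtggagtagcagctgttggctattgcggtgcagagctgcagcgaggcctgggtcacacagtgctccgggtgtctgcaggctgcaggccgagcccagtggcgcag
MACC1 (chr7:20217335-20217634, minus strand): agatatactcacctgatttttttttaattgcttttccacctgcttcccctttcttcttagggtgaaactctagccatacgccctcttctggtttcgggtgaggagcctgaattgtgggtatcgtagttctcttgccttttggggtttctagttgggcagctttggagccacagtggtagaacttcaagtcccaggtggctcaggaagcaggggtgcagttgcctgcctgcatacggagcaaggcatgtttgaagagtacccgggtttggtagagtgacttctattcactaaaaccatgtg

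The window of ARHGAP1, a GTPase-activating protein, held 2 GC boxes and 1 ETS core and had a GC content of 60.7% with 21 CG dinucleotides. That of PDGFD, a growth factor of the PDGF family, had 67.3% GC, 26 CG dinucleotides and 1 GC box. The windows of MAPK10, a JNK kinase, CLASP2, a protein of microtubule plus ends, and MACC1, a transcriptional regulator, were poorer in CG, with 9, 7 and 5 dinucleotides and a GC content of 48.3% to 53.3%. CLASP2 held 1 CCAAT box, and MAPK10 and MACC1 held none of the 4 motifs. Over 90 windows of genes with a promoter site strong in both shLUC lists and absent from both shHNRNPU#1 lists, the median GC content was 67.3%, beside 63.7% over 2409 windows at sites strong in all 4 lists and 62.7% over 15843 windows of all genes in the table. The ETS core was found in 16.7% of the 90 windows, 26.1% of the 2409 and 14.2% of all. The GC box was found in 62.2%, 67.7% and 58.5%, the CCAAT box in 36.7%, 39.1% and 36.4%, and the TATA box in 5.56%, 4.77% and 9.63%. These shares describe letters in windows of the same length and were not tested.

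To separate sites that fell in rank from sites that were missing, 11032 strong shLUC sites were followed, each a strong summit of repeat 1 with a strong summit of repeat 2 within 250 bp. In shHNRNPU#1, 67.8% and 64.9% of them kept a strong summit within 250 bp in repeat 1 and 2, and a further 5.08% and 4.98% had one within 1000 bp. A weaker summit was present at 16.7% and 13.3%, which is a shift in rank. No summit of any score lay within 1000 bp at 10.4% and 16.8%. The higher absence was in the shorter list. In shHNRNPU#2 the same sites kept a strong summit within 250 bp at 71.6% and 73.3%, had a weaker summit at 19.5% and 19.4% and lacked one at 4.62% and 2.77%. The shHNRNPU#1 lists thus held fewer kept and more absent sites than any of the shHNRNPU#2 lists, with no overlap, and fewer rank shifts.

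The opposite direction followed 9696 strong shHNRNPU#1 sites. In the shLUC lists 69.4% and 73.0% kept a strong summit within 250 bp, 17.7% and 19.2% had a weaker one and 7.22% and 2.52% had none. In the shHNRNPU#2 lists 71.0% and 71.4% were kept and 4.79% and 2.79% had none. In all 4 of these lists a lower rank was more frequent than absence.

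Absence was counted again at equal list length, a cut that can only raise it. What part of the absence goes with list length was not tested. With every list cut to the 40487 highest summits, absence of shLUC sites was 13.1% and 16.8% in shHNRNPU#1 and 10.2% and 8.63% in shHNRNPU#2, and absence of shHNRNPU#1 sites rose to 11.8% and 8.65% in shLUC. The kept share does not depend on this cut. Between single lists at this length, 24.3% to 30.1% of the strong summits of a shHNRNPU#1 list had no summit in a shLUC list, and 27.6% to 28.8% had none in the other shHNRNPU#1 list. The same range from shLUC to shHNRNPU#1 was 25.1% to 31.2%, and between the shLUC lists 20.6% to 21.1%. The 2 shHNRNPU#1 lists thus lacked as many of each other's strong summits as shLUC lacked of theirs, and in the kept share they were less alike, at 48.5%, than the shLUC lists, at 55.2%, or the shHNRNPU#2 lists, at 54.6%. Between shLUC and shHNRNPU#1 lists the kept share was 46.4% to 51.2%, a range that contains the value between the shHNRNPU#1 repeats.

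**Figure D2:**
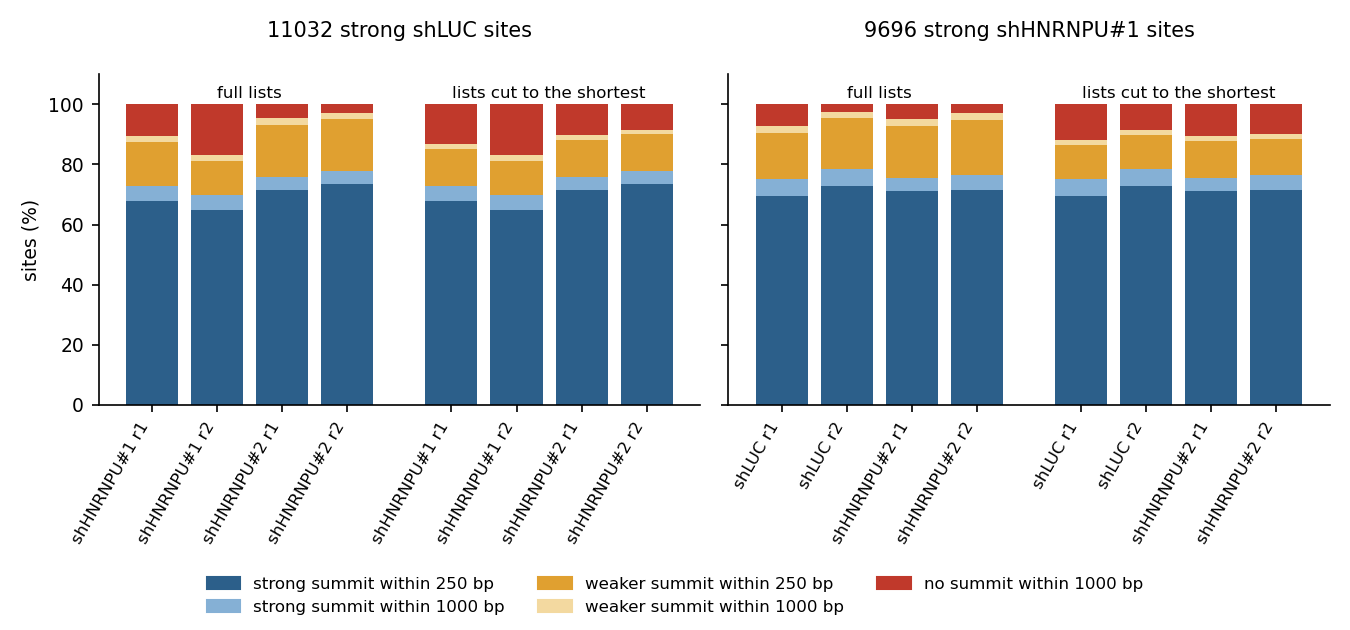
Share of strong sites (y axis, %) by what lay at them in each list (bars; r1 and r2 are repeats), for 11032 shLUC sites (left) and 9696 shHNRNPU#1 sites (right), with full lists and with all lists cut to the shortest. In full lists the red part, no summit within 1000 bp, is 10.4% and 16.8% in the shHNRNPU#1 lists and 2.52% to 7.22% in every other bar; after the cut all red parts lie between 8.63% and 16.8%.

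Requiring the same fate in both lists, 6502 of the 11032 shLUC sites (58.9%) had a strong summit within 1000 bp in both shHNRNPU#1 lists, and 1778 (16.1%) in neither. Of the 1778, 443 had a weaker summit in both lists, 715 had a weaker summit in 1 and none in the other, and 620 had none in either. The share absent from both lists was 5.62% of shLUC sites. In the opposite direction 6483 of 9696 shHNRNPU#1 sites (66.9%) were strong in both shLUC lists and 1311 (13.5%) in neither. Of the 1311, 743 were weaker in both, 453 were weaker in 1 and absent from the other, and 115, or 1.19% of the shHNRNPU#1 sites, were absent from both. In the full lists a lost shLUC site was thus more often absent from both than weaker in both, and a gained shHNRNPU#1 site the reverse. With all lists cut to the same length the shares absent from both were 6.56% and 4.19%, and the order for gained sites turned, with 342 weaker in both shLUC lists and 406 absent from both. Where a site had only a weaker summit within 250 bp, its median rank was 28646 and 26784 in the shHNRNPU#1 lists and 30563 and 32178 in the shLUC lists, and 56.0% and 64.8% of these sites in shHNRNPU#1 and 47.0% and 44.5% in shLUC stayed within the 30000 highest.

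The sites that were not strong in the other condition differed in kind between the directions. Of the 1778 shLUC sites not strong in either shHNRNPU#1 list, 23.9% lay at a promoter, 41.3% elsewhere in a gene body and 34.8% between genes. Of the 1311 shHNRNPU#1 sites not strong in either shLUC list, 5.26% lay at a promoter, 68.8% in a gene body and 25.9% between genes. The sites strong in all lists were similar in both directions, with 37.1% and 37.0% at promoters and 41.1% and 41.2% in gene bodies. For shHNRNPU#2 the corresponding sites were 17.4% promoters and 52.8% gene bodies among 1315 lost, and 11.9% promoters and 53.4% gene bodies among 1357 gained. The gap between lost and gained sites was therefore wider with shHNRNPU#1 than with shHNRNPU#2, in a comparison where both share the shLUC lists and which was not tested.

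Since weak sites are lost more easily, the classes were compared at like rank by ordering the sites of each condition and splitting them into 4 equal groups. Among shLUC sites, the share not strong in either shHNRNPU#1 list was 1.08% for promoters, 2.90% for gene bodies and 3.85% for intergenic sites in the strongest group and 29.0%, 25.3% and 34.5% in the weakest. Among shHNRNPU#1 sites it was 0 of 985 promoters, which allows a share of up to 0.305%, 1.88% of gene bodies and 1.31% of intergenic sites in the strongest group, and 8.06%, 33.9% and 32.0% in the weakest. Promoters gained with shHNRNPU#1 were thus few at every strength, while in the weakest group the share of promoters lost lay between those of gene bodies and intergenic sites.

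**Figure D3:**
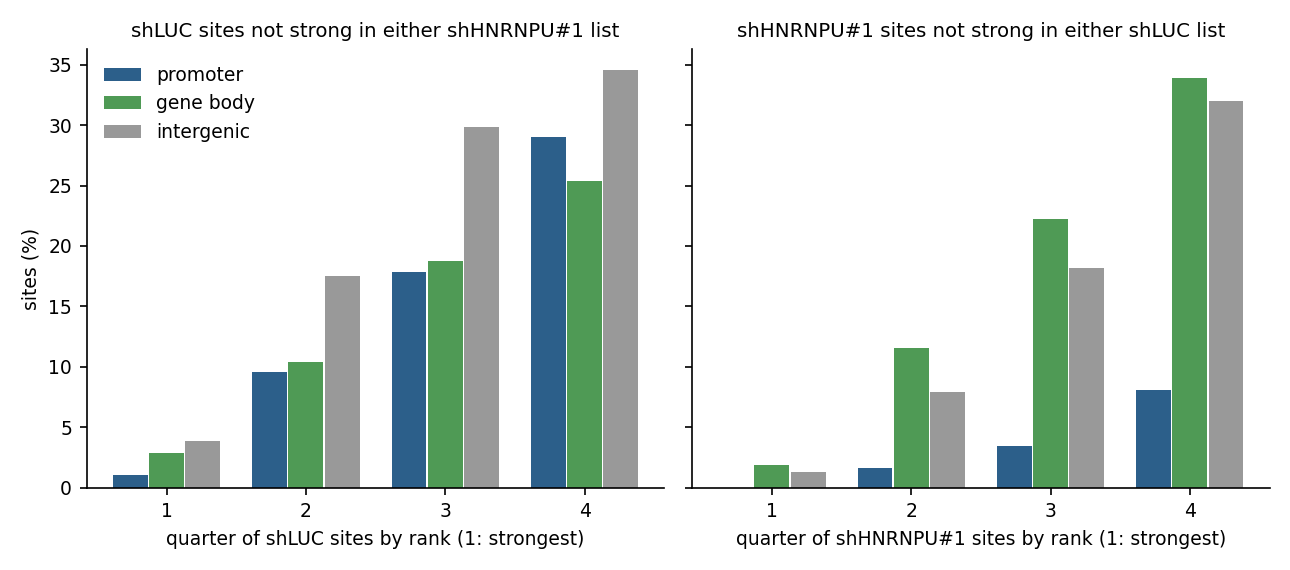
Share of sites (y axis, %) that were not strong in either list of the other condition, for shLUC sites (left) and shHNRNPU#1 sites (right), by rank group (x axis, 1 strongest) and genomic class (colours). Promoter bars on the right end at 8.06%, while on the left they reach 29.0%.

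The same imbalance stood in the composition of the strong summits. Promoters made up 21.9% and 21.2% of strong summits in shHNRNPU#1 against 24.5% and 27.2% in shLUC, a difference of -4.30 percentage points (21.6% ± 0.559 against 25.9% ± 1.86, SD, n = 2 each). Gene bodies outside promoters made up 53.0% and 53.0% against 47.6% and 45.4%, a difference of 6.45 percentage points. The 2 groups did not overlap for either measure, and each two-sided exact permutation p was 0.333, the smallest that 2 lists against 2 can give. In shHNRNPU#2 promoters were 25.2% and 23.9% and gene bodies 46.4% and 47.5%, of which the promoter share of repeat 2 was outside the shLUC range. The gene body share was singled out after its values were seen. Both shHNRNPU#1 lists had fewer promoter and more gene body summits than the other 4 lists at each of the 5000, 10000, 20000, 30000 and 40000 highest summits. Over all deposited summits, where the lists differ in length, the promoter difference was 2.06 percentage points in the opposite direction. With the shLUC lists taken by title it was 14.2 percentage points higher in shHNRNPU#1.

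**Figure D4:**
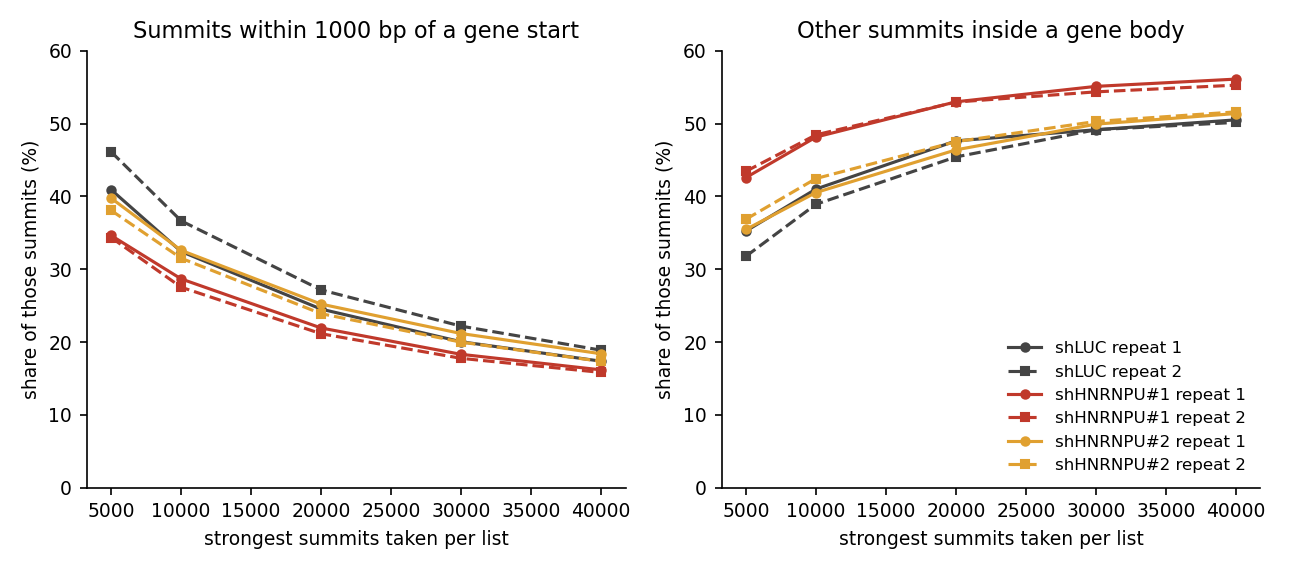
Share of the strongest summits (y axis, %) within 1000 bp of a gene start (left) or elsewhere in a gene body (right), by how many of the strongest summits were taken (x axis), for the 6 H3K27ac lists. Both shHNRNPU#1 lists (red) are lowest on the left and highest on the right at all 5 depths; at 20000 their gene body shares are 53.0% and 53.0%, and the other 4 are 45.4% to 47.6%.

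Sites bound by HNRNPU in untransfected cells were compared next, using 17226 HNRNPU summits found in both repeats. A strong H3K27ac summit lay within 500 bp of 35.4% and 33.6% of them in shHNRNPU#1, of 39.9% and 43.8% in shLUC and of 41.1% and 39.6% in shHNRNPU#2. shHNRNPU#1 minus shLUC came to -7.36 percentage points (34.5% ± 1.24 against 41.9% ± 2.80, SD, n = 2 each, two-sided exact permutation p = 0.333, the smallest possible), and the groups did not overlap. Taken by title, the shLUC lists gave a difference of 9.57 percentage points. Of the lost shLUC sites, 35.8% lay within 500 bp of an HNRNPU summit, of the gained shHNRNPU#1 sites 9.92%, and of the shLUC sites strong in all lists 55.1%. In the strongest of the 4 rank groups, 1.08% of shLUC sites at HNRNPU and 5.05% of the others were not strong in either shHNRNPU#1 list, and in the weakest group the shares were 28.7% and 28.3%. Promoter position and HNRNPU binding were not separated in these shares.

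Marks measured in other samples of shLUC and shHNRNPU#1 cells were compared at these sites. The H3K4me1 lists were cut to their shortest length of 147145 summits. Lists of POLIIS2P, an antibody that the labels give by this name alone, were cut to 79949. At the 620 shLUC sites absent from both shHNRNPU#1 lists, an H3K4me1 summit lay within 500 bp at 73.5% and 77.6% in shLUC and at 70.2% and 71.8% in shHNRNPU#1. At the 115 shHNRNPU#1 sites absent from both shLUC lists the shares were 55.7% and 59.1% in shLUC and 64.3% and 67.8% in shHNRNPU#1. Over all 11032 shLUC sites they were 73.5% and 74.2% in shLUC and 75.1% and 76.3% in shHNRNPU#1, and over all 9696 shHNRNPU#1 sites 70.4% and 70.7% against 73.1% and 74.4%, so H3K4me1 was also higher in shHNRNPU#1 over all sites. Of the 441 lost sites with H3K4me1 in both shLUC lists, 382 (86.6%) had it in both shHNRNPU#1 lists, beside 92.1% of such sites among all shLUC sites. POLIIS2P summits lay at 46.0% and 45.6% of the 620 sites in shLUC and at 45.2% in the single shHNRNPU#1 list, which has no replicate check.

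Scores were then compared at 13461 sites with a summit in all 4 lists, on the log2 scale after quantile normalisation, so a fold is a ratio of −log10 values and not of signal. Each site was built from strong summits, so it was strong in at least 1 of the 4 lists. The limma test called 5 sites higher and 1 lower in shHNRNPU#1 at an adjusted p below 0.05, which is 0.0371% and 0.00743% of the sites tested. At an unadjusted p below 0.05 there were 1150 sites, 562 higher and 588 lower. All 6 called sites lay away from promoters. Of them, the sites in NAF1 and WASL were strong only in shHNRNPU#1, and the site in LRRTM4 only in shLUC. These entered the test through the group where they were high, so their p-values come from sites partly selected on the difference tested. The number called depended on single lists: it was 0 without shLUC repeat 2 (706 at an unadjusted p below 0.05), 2 without shLUC repeat 1, 69 without shHNRNPU#1 repeat 1 and 17 without shHNRNPU#1 repeat 2, each over sites built anew from the 3 lists left.

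The called rise with the largest log2 change was in the body of NAF1, a factor of box H/ACA ribonucleoprotein assembly (chr4:163162002-163162096). Its scores were 4.27 and 5.51 in shLUC and 14.3 and 18.8 in shHNRNPU#1, a log2 change of 2.21 ± 0.44 (SE, limma, adjusted p = 0.0146). It ranked 39978 and 51300 in shLUC, 2577 and 599 in shHNRNPU#1 and 10659 and 21468 in shHNRNPU#2, so the shHNRNPU#1 ranks were clear of all others.

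In the body of WASL, a promoter of actin branching (chr7:123692593-123692654, nearest start LMOD2), scores were 6.16 and 7.48 in shLUC and 22.3 and 21.0 in shHNRNPU#1 (log2 change 2.13 ± 0.40, SE, limma, adjusted p = 0.00879). The shHNRNPU#2 scores were also high, 20.6 and 21.1. In the body of GULP1, an adaptor of the engulfment of dying cells (chr2:188299079-188299208), they were 9.87 and 12.3 against 41.2 and 24.3, with 15.1 and 20.8 in shHNRNPU#2 (log2 change 2.02 ± 0.35, limma, adjusted p = 0.00242). In the body of PKN2, a protein kinase (chr1:88801929-88802039, nearest start GTF2B), they were 7.97 and 13.6 against 31.6 and 18.3, with 14.4 and 13.0 in shHNRNPU#2 (log2 change 1.72 ± 0.37, limma, adjusted p = 0.0365). The remaining rise, at chr21:8464735-8464737, was among the highest summits of every list, with ranks of 49 and 101 in shLUC, 9 and 11 in shHNRNPU#1 and 6 and 4 in shHNRNPU#2 (log2 change 0.84 ± 0.17, limma, adjusted p = 0.0225).

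The called fall was in the body of LRRTM4, a synaptic adhesion protein (chr2:76796086-76796168). Scores were 13.8 and 31.1 in shLUC, 3.40 and 3.07 in shHNRNPU#1 and 12.1 and 7.51 in shHNRNPU#2 (log2 change -2.25 ± 0.46, SE, limma, adjusted p = 0.0156). By rank, which is less tied to depth than the score, PKN2 stood at 12230 and 9182 in shLUC, 229 and 651 in shHNRNPU#1 and 3876 and 6741 in shHNRNPU#2. At GULP1, NAF1, PKN2 and LRRTM4 both shHNRNPU#2 ranks lay between those of shLUC and shHNRNPU#1. The calls in PKN2 and at chr21:8464735-8464737 were lost when normal scores of ranks were tested (limma, adjusted p = 0.0658 and 0.0955) and with the replicate number as a block (limma, adjusted p = 0.0850 and 0.0922). Leaving out 1 list with these sites held fixed lost all called sites but GULP1 at least once, and at GULP1 the adjusted p (limma) was then at most 0.0478.

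No promoter site was called. The strongest evidence of a rise was at TAF8, a subunit of the initiation factor TFIID (chr6:42050686-42050742), with scores of 3.00 and 4.34 in shLUC and 11.8 and 12.3 in shHNRNPU#1 (log2 change 2.13 ± 0.48, limma, adjusted p = 0.0518). FANCD2, of the Fanconi anaemia DNA repair pathway, had scores of 3.99 and 4.03 against 12.7 and 7.35, and RANBP1, a cofactor of the Ran GTPase, 5.80 and 9.67 against 13.1 and 13.2 (limma, adjusted p = 0.218 and 0.310). The strongest evidence of a fall was at SSU72, a phosphatase of the RNA polymerase II tail (chr1:1574598-1574848), with scores of 18.9 and 39.5 against 7.74 and 4.31 (log2 change -1.77 ± 0.41, limma, adjusted p = 0.0767). It was followed by the zinc finger gene ZNF791, with 36.8 and 49.7 against 17.5 and 7.50, and by KATNAL2, a katanin-like microtubule-severing protein, with 16.6 and 19.8 against 4.09 and 3.91 (limma, adjusted p = 0.0849 and 0.125). BTG1, an antiproliferative gene, had scores of 12.0 and 32.3 against 5.30 and 3.82 (limma, adjusted p = 0.134). In all of these the groups did not overlap. TAF8 and FANCD2 were strong only in shHNRNPU#1, and KATNAL2 and BTG1 only in shLUC, so these entered the test through the group where they were high. By rank SSU72 stood at 1313 and 542 in shLUC, 11974 and 23993 in shHNRNPU#1 and 1926 and 2847 in shHNRNPU#2.

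Although few single sites were called, the classes were shifted against each other. The median log2 change was -0.18 at 3551 promoter sites (interquartile range -0.49 to 0.13), 0.11 at 6677 gene body sites (-0.26 to 0.45) and -0.0031 at 3233 intergenic sites (-0.35 to 0.36), with -0.0026 over all sites. The change was above 0 at 35.0% of promoter sites and 57.8% of gene body sites, beside 49.8% of all sites. At an unadjusted p below 0.05 (limma), 54 of the 3551 promoter sites were higher and 253 lower. Of the 6677 gene body sites 363 were higher and 179 lower, and of all 13461 sites 562 and 588. Whether the classes differ in these counts was not tested. At HNRNPU sites the median was -0.14 over 5234 sites and elsewhere 0.10 over 8227. The sites share 4 lists, so these are descriptions of those lists.

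The sites absent from the other condition were named by the rank of their score. Among promoters of shLUC, the highest was a summit in the body of LIN28B, a repressor of let-7 processing that marks pluripotent cells. It lay at chr6, position 104956252, -855 bp from an internal start of the gene. It ranked 3028 and 3063 in shLUC and 813 and 549 in shHNRNPU#2 and had no shHNRNPU#1 summit within 1000 bp, although one lay 1399 and 1370 bp away in the 2 lists, so the loss is of this position and not of all acetylation near the gene. At an internal start of USP44, a deubiquitinase, the ranks were 2164 and 5371 in shLUC and 4605 and 1584 in shHNRNPU#2. The nearest shHNRNPU#1 summits were 2924 and 2852 bp away.

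At MAPK10 the ranks were 4465 and 3679 in shLUC and 2232 and 10151 in shHNRNPU#2, at CLASP2 4393 and 4956 against 2973 and 2541, and at MACC1 2147 and 9311 against 1639 and 9019, with the nearest shHNRNPU#1 summit at least 18877 bp away. These promoters were strong in all 4 lists of shLUC and shHNRNPU#2 and missing from both of shHNRNPU#1. The MAPK10 and CLASP2 starts lie inside their genes, and these ranks do not describe other starts of the 2 genes. ARHGAP1 ranked 3655 and 4709 in shLUC but 26209 and 24445 in shHNRNPU#2, and ZNF593, a zinc finger gene, 3446 and 6462 against 49998 and 67154. At these 2 the shHNRNPU#2 lists were also below the strong range. PDGFD was strong in 1 shHNRNPU#2 list, at rank 5959, and not in the other, at 38324. TVP23C, a Golgi membrane protein, ranked 5151 and 3607 in shLUC and 5993 and 13618 in shHNRNPU#2, and LARP1, a regulator of the translation of ribosomal protein mRNAs, 5459 and 4503 against 11072 and 10571. Of all 100 promoter sites absent from both shHNRNPU#1 lists, 29 were strong in both shHNRNPU#2 lists and 48 in neither. Over all 3571 promoter sites of shLUC the counts were 2752 and 229. An H3K4me1 summit remained in both shHNRNPU#1 H3K4me1 lists at 9 of the 10 named promoters, all but ARHGAP1, which also lacked one in at least 1 shLUC list.

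Away from promoters, the highest absent sites stood above those at promoters. On chromosome 3 a site at position 20512021 lay between genes, -325815 bp from the nearest start, that of SGO1. It ranked 1422 and 861 in shLUC and 1083 and 1540 in shHNRNPU#2. The nearest shHNRNPU#1 summits were 40538 and 41000 bp away. A site in the body of TMEM117 (chr12, position 44000521) ranked 428 and 2449 in shLUC and 641 and 6691 in shHNRNPU#2, with the nearest shHNRNPU#1 summits 115413 and 115353 bp away. At chr3, position 101530559, 17347 bp from the start of SENP7, the ranks were 1508 and 1981 against 1431 and 6548. At chr5, position 136686424, -288874 bp from the start of SPOCK1, they were 2554 and 3154 against 2053 and 5745. H3K4me1 summits lay at the sites near SGO1 and SENP7 and in TMEM117 in both shLUC and both shHNRNPU#1 lists, while the site near SPOCK1 lacked one in at least 1 list of each condition.

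In the opposite direction, 2 promoters were absent from both shLUC lists. At an internal start of DISP1, which releases Hedgehog ligands, the ranks were 10840 and 6861 in shHNRNPU#1 and 40705 and 5301 in shHNRNPU#2. LDHD, a mitochondrial D-lactate dehydrogenase, ranked 18256 and 16736, just inside the strong range, and was absent from both shHNRNPU#2 lists. Distal gains were stronger. A site in the body of CAMK2D, a calcium/calmodulin-dependent kinase (chr4, position 113561410), ranked 712 and 306 in shHNRNPU#1, 2235 in 1 shHNRNPU#2 list and was absent from the other. A site near KMT2E, a relative of the H3K4 methyltransferases (chr7, position 105013049), ranked 653 and 765 in shHNRNPU#1 and 656 and 666 in shHNRNPU#2, with the nearest shLUC summits 1093 and 1089 bp away, just outside the window. A site in DHRS7 (chr14, position 60161707) ranked 3392 and 1981 in shHNRNPU#1 and 3684 and 1170 in shHNRNPU#2, strong in both. The site at chr6, position 141451351, -234747 bp from the start of LOC124901415, ranked 4330 and 1615 against 38016 and 9304. The site at chr19, position 16823242, 5279 bp from the start of NWD1, ranked 2844 and 4505 against 11720 and 33564. Of the 115 gained sites 12 (10.4%) were strong in both shHNRNPU#2 lists and 20 (17.4%) absent from both. Over all 9696 shHNRNPU#1 sites the shares were 65.7% and 1.02%. Of the 620 lost sites 129 (20.8%) were strong in both shHNRNPU#2 lists and 58 (9.35%) absent from both. Over all 11032 shLUC sites the shares were 65.6% and 0.943%.

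**Figure D5:**
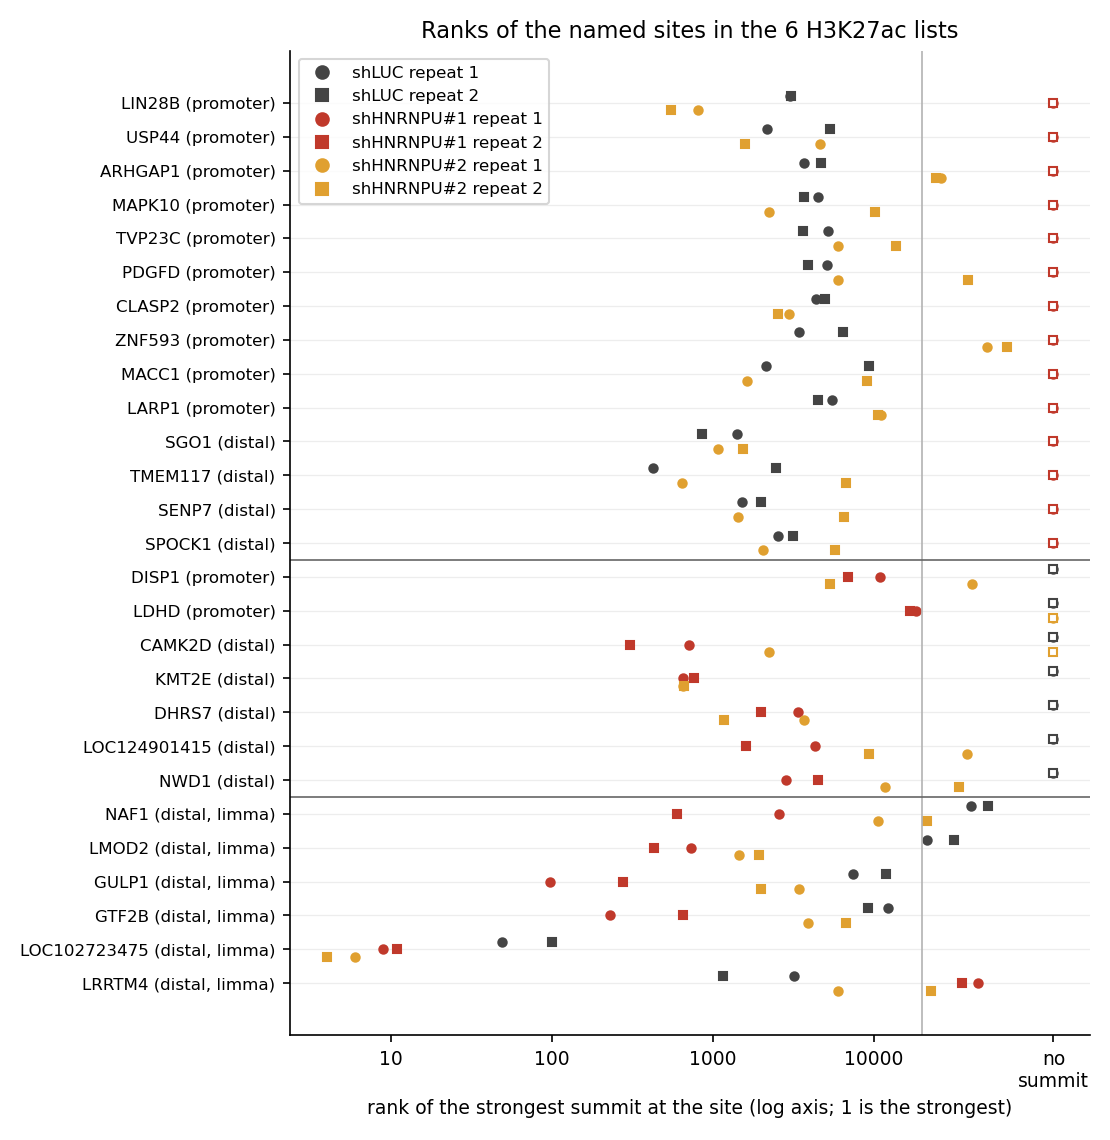
Rank of the strongest summit (x axis, log scale, 1 strongest; open symbols at the right edge, no summit) at the named sites in the 6 H3K27ac lists, with a grey line at rank 20000. The upper block is strong in shLUC and absent from shHNRNPU#1, the middle block the reverse, and the lowest block holds the 6 sites called by limma, and rows are named by the nearest start; in the upper block ARHGAP1 and ZNF593 have both shHNRNPU#2 ranks beyond 20000 and PDGFD has 1.

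Promoters were also compared gene by gene, by the rank of the highest summit within 1000 bp of any of the gene's starts, with an absent summit as the lowest rank. Of 7551 genes with a strong promoter summit in at least 1 of the 4 lists, both shHNRNPU#1 ranks were below both shLUC ranks in 2239 (29.7%) and above them in 690 (9.14%). Below and above here mean a weaker and a stronger place in the list. A gene strong only in lists of 1 group could differ in 1 direction only. The same counts for shHNRNPU#2, against the same shLUC lists, were 1860 and 835. The genes were chosen without the shHNRNPU#2 lists, so a gene strong in those alone could not enter. The shHNRNPU#2 counts here and in the groups below are therefore not like for like with those of shHNRNPU#1. The median log2 change in rank over the 7551 genes was 0.47, towards weaker places, with ranks beyond the length of the shortest list counted as absent. The lists of genes below are read against this shift and these shares. Promoters strong in both shLUC lists numbered 4579 and in both shHNRNPU#1 lists 3623, of which 3163 were strong in all 4.

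HNRNPU itself ranked 4987 and 4097 in shLUC, 22494 and 5429 in shHNRNPU#1 and 3125 and 15268 in shHNRNPU#2 (summits at positions 244864496 to 244864657 on chromosome 1). Both shHNRNPU#1 ranks were weaker than both shLUC ranks, but 1 of them only slightly. Among 18 tested genes of splicing factors and hnRNPs, 7 were weaker and 1 stronger. Among the weaker ones were HNRNPU, HNRNPUL1 (8301 and 6583 against 30820 and 15308), HNRNPC (882 and 1161 against 3402 and 3147), HNRNPD (776 and 282 against 780 and 950), SRSF1, and PTBP1, and the stronger one was HNRNPA1 (3480 and 3159 against 1434 and 1486). The median log2 rank change of the group was 0.58, beside 0.47 over all genes tested, of which 29.7% were weaker and 9.14% stronger.

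Of 19 core pluripotency genes in the gene table, 14 were tested, 1 was weaker and 1 stronger. LIN28B ranked 3022 and 1066 in shLUC, 9984 and 9385 in shHNRNPU#1 and 813 and 549 in shHNRNPU#2, over all its starts. POU5F1, which encodes OCT4, ranked 18634 and 41836 in shLUC and 11966 and 14589 in shHNRNPU#1, strong in 3 of these 4 lists. The other 12 overlapped, among them TERF1 (172 and 626 against 306 and 834), DNMT3B, a DNA methyltransferase (4562 and 2550 against 834 and 36640) and TRIM28, a corepressor of transposons (1079 and 485 against 496 and 1263). Of 6 tested genes of formative and primed pluripotency 3 were weaker and none stronger: SALL2 (270 and 320 against 3468 and 1702), CD24 and DUSP6. No naive pluripotency or neural gene reached the strong range. Of the mesendoderm regulators only HNF4A was tested, and it was stronger (no summit and 29083 against 21159 and 16408). It was strong in 1 shHNRNPU#1 list alone, so it could not have come out weaker. In shHNRNPU#2 it ranked 58324 in repeat 1 and had no summit in repeat 2.

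Among signalling genes, 2 of 7 of the Nodal and BMP pathway were weaker, SMAD2, its intracellular transducer (13336 and 15311 against 24827 and no summit), and ID3, a target of BMP signals. Of 6 WNT genes 2 were weaker, the co-receptor LRP6 (1124 and 1118 against 3130 and 4585) and the receptor FZD5 (40190 and 18994 against no summit in either list). The FZD5 rank of 40190 lay near the end of the shortest list, at 40487. No gene of these groups was stronger, and all 7 FGF and ERK genes tested overlapped, among them FOS (2412 and 4063 against 3736 and 1786) and SPRY2, an inhibitor of the pathway (3088 and 6569 against 5360 and 14691). For comparison, 29.7% of all genes tested were weaker and 9.14% stronger.

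Genes of the machinery of the mark itself were mixed. Of 9 tested genes of H3K27 acetylation 4 were weaker and 1 stronger. KAT5, an acetyltransferase, ranked 1458 and 1130 against 8780 and 4044 and NCOR1, a corepressor, 2865 and 1905 against 6811 and 3231, while the deacetylase HDAC2 ranked 106 and 108 against 35 and 62. EP300 overlapped (989 and 555 against 1011 and 908). Of 8 genes of H3K4 methylation 4 were weaker, among them KMT2A (7479 and 9573 against no summit in either list), and KMT2D was stronger (18224 and 17452 against 13457 and 3435). Of 12 genes of nuclear architecture 4 were weaker and none stronger: CTCF, the insulator protein (1102 and 313 against 6457 and 3388), the cohesin subunit RAD21, LMNB1, which encodes lamin B1, and NUMA1. In shHNRNPU#2 5 of the 12 were weaker and 2 stronger. The shares over all genes tested in shHNRNPU#1 were 29.7% weaker and 9.14% stronger, and whether these groups differ from them was not tested. The paired genes SAFB and SAFB2 share their start region and had the same ranks.

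Of 22 cytosolic ribosomal protein genes tested, 14 overlapped, 6 were stronger, among them RPL3, RPL4, RPL7A, RPL27 and RPS19, and 2 weaker, among them RPS16, with a median log2 rank change of -0.51. RPL4 ranked 1452 and 844 in shLUC and 693 and 561 in shHNRNPU#1, and RPL3 had no summit and rank 18141 against 5600 and 3962. In shHNRNPU#2 4 of the 22 were stronger and 1 weaker. Over all genes tested 29.7% were weaker and 9.14% stronger, and whether this group differs from them was not tested.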

How the data were processed

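CUT&Tag summit lists of H3K27ac in H1 cells were analysed, with those of H3K4me1, HNRNPU and POLIIS2P beside them. The authors deposited 1 list per sample and, per the submitters' processing notes, used cutadapt, Bowtie2, SAMtools, MACS2 and deepTools with hg38; versions, thresholds and controls are not given in the sources used here. The deposited score is read as −log10 of a p-value or q-value. A further deposited list of HNRNPU intervals has a score of 0 throughout, and only its positions were used.

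The 20000 highest summits of each list were strong, and summits within 250 bp were shared. Gene starts came from the RefSeq table (GRCh38.p14) for 15842 protein-coding genes, and both gene ends stood in for 4195 without strand. Sites built from strong summits, with a summit in all 4 lists, were tested with limma 3.58.1 (trend) on quantile normalised log2 scores with Benjamini-Hochberg adjustment. The prior had 71.7 degrees of freedom, so the spread at a site came mostly from that over all sites. Shares were compared by two-sided exact permutation over 6 assignments. Steps were tested on simulated data. Sites named were the 10 promoter and 5 distal ones per direction with the largest called change (smallest p where none was called), or with the highest score percentile among absent ones, plus HNRNPU and the genes of the lists; some of these are not reported here. The members and lists were chosen with earlier results of these data known. Deviations of same-numbered lists from their group means correlated at 0.0062, so no block was used. Between repeats, 1.69% to 2.71% of summits fell on an identical base, none with an identical score. Read depth is unknown, so no interval that needs it is given.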

Additional observations from a re-analysis of the deposited data

How the results depend on the processing

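Direction held under every alternative run for the promoter, gene body and HNRNPU site shares, with the exceptions of the sample titles and, for promoters, all deposited summits. With shLUC lists by sample title the differences reversed to 14.2 (promoter), -1.19 (gene body) and 9.57 (HNRNPU) percentage points, kept shares were 21.4% (shLUC sites) and 25.3% (shHNRNPU#1 sites), absent shares 66.0% and 21.7%, and limma called 2768 sites. Over all deposited summits the promoter difference was 2.06, and the HNRNPU difference -17.7; with the series-wide HNRNPU intervals the latter was -3.50. Over the 5000 highest, a setting added after seeing the data like all those of the gene body share, they were -9.02 and -3.08. Kept shares of shLUC and shHNRNPU#1 sites were 66.4% and 71.2%, 52.7% and 57.8% with a 100 bp window, 70.1% and 74.8% with 500 bp, and 51.6% and 80.9% with a score of at least 5. Absent shares of shLUC sites were 13.6%, 6.32% for the 10000 highest, 20.2% for the 30000 highest and 26.5% with a score of at least 5; that of shHNRNPU#1 sites was 4.87%, and 10.2% with lists cut to the shortest. The cause of these moves was not tested. Without 1 list at a time, kept shares were 47.5% to 67.8% and 47.7% to 73.0%, absent shares 10.4% to 27.2% and 2.52% to 16.9%, the differences -5.62 to -2.98 (promoter), 5.34 to 7.55 (gene body) and -9.34 to -5.39 (HNRNPU), and limma calls 0 to 69. Leaving out a list of the group that defines the sites drops the requirement of 2 repeats.

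Limma called 6 sites, 15 after median scaling (9 higher, 6 lower), 10 with the spread from 6 lists, 13 for the 10000 highest, 2 for the 30000 highest, 3 with a 100 bp window and 13 with 500 bp. Without shLUC repeat 2 it called 0 (706 at an unadjusted p below 0.05), without shLUC repeat 1 2, without shHNRNPU#1 repeat 1 69 and without shHNRNPU#1 repeat 2 17; these fits rebuild the sites from 3 lists, and the list left alone is assumed to vary like the others. The replicate block gave 4 calls, 3 higher and 1 lower; the numbers do not pair the samples. The 26 named shared sites were followed, held fixed, under a part of the settings. These were the other normalisations, the replicate block, the spread from 6 lists and leaving out 1 list. None of these runs changed a direction. With no list left out, calls were lost at up to 2 of the sites and gained at up to 3, and GULP1 was called in each run. Leaving out 1 list lost and gained further calls. The other cut-offs, windows, titles and rebuilt sites are not covered by this. Depth is unknown, so absence from the shorter shHNRNPU#1 lists does not show that a site lacks the mark.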
